A study of Glycine max with 10 samples.

Results

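Transcript levels in mid-maturation soybean seeds, 4 arrays at 40 and 45 days after flowering (DAF), were compared with those in early-filling seeds, 4 arrays at 25 and 30 DAF. These are 8 of the 10 arrays of a time course of whole developing seeds of the cultivar Evans, and the arrays at 50 DAF were left out. The mid-maturation group holds replicates 1 and 2 at 40 DAF and at 45 DAF, and the early-filling group replicates 1 and 2 at 25 DAF and at 30 DAF. The labels and the extraction methods give 40 DAF for the third age, while another passage of the source text has 35 DAF for the arrays, and the labels were followed. All groups share the genotype and received no treatment. The plants grew in a field near Ames, flowers were tagged as they opened, and the pods of several plants were pooled for each biological replicate. Each RNA sample was hybridised to its own Affymetrix Soybean Genome Array, on which groups of short probes called probe sets measure 37593 transcripts. Fewer seeds were extracted per sample at the later ages, all plants stood at 1 site, and the age of a seed cannot be told apart from the conditions in the field on the days before its harvest.

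A soybean seed first builds its tissues by cell division, then fills its cotyledons with storage protein, oil and, for a time, starch, and finally prepares to dry. The embryo is green while it fills, so chloroplast genes are active in it, and the seed coat around it passes on sugars and amino acids and later dies. As filling ends, late embryogenesis abundant (LEA) proteins, small hydrophilic proteins that protect cell contents against drying, accumulate under the control of abscisic acid, and the chlorophyll is broken down.

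Among probe sets with an informative gene symbol, the 12 genes with the largest rises at mid-maturation included LEA and seed maturation proteins, an oil body protein, a chalcone synthase, glutathione transferases and a NAC transcription factor. The 12 with the largest falls included lipoxygenases, seed coat proteins, a light-harvesting protein, a vegetative storage protein and an aquaporin. Smaller falls were found for protein-folding enzymes of the endoplasmic reticulum and the replication protein PCNA, and isoflavonoid enzymes were called in both directions. A probe set without a name rose more than any of these genes, by 8.12 on the log2 scale. The main storage proteins were near the top of the signal range in both periods and were not called. In limma's moderated test, with the replicate number as a block, 3055 probe sets were higher and 3529 lower at a Benjamini-Hochberg adjusted p under 0.05, which is 8.13% and 9.39% of the 37593 tested and 17.5% in either direction. At least 2-fold differences were found for 1548 of those higher and 1913 of those lower, and at least 8-fold differences for 189 and 249. The median log2 difference over all probe sets was 0.0064. An unadjusted p under 0.05 was found for 11962 probe sets, 6584 of which passed the adjustment.

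**Figure D1:**
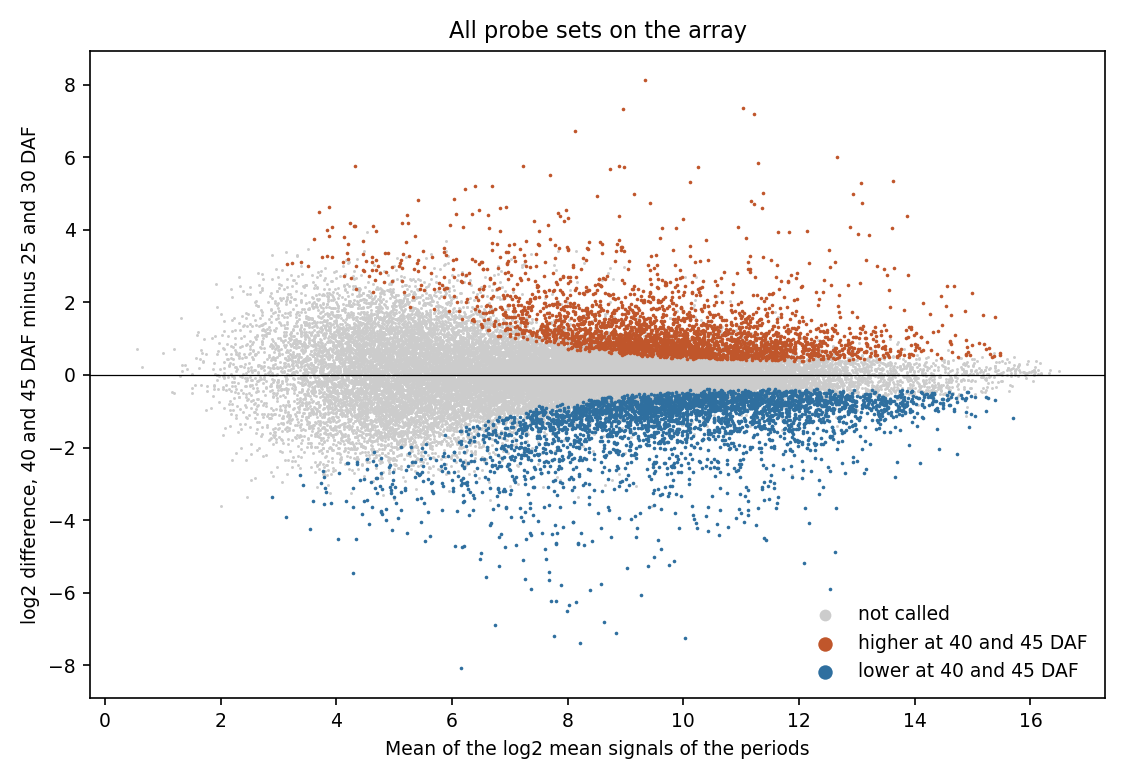
Each point is 1 of the 37593 probe sets, plotted by the mean of its log2 mean signals in the 2 periods (horizontal axis) and by its log2 difference, 40 and 45 DAF minus 25 and 30 DAF (vertical axis). Orange points were called higher (3055) and blue points lower (3529) by limma at an adjusted p under 0.05, and grey points were not called. The calls lie on both sides of 0 over the whole range of signals, and the median difference is 0.0064.

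Over all probe sets the median size of the log2 step was 0.27 between 25 and 30 DAF and 0.29 between 40 and 45 DAF. It was 0.46 between 30 and 40 DAF, the longest gap between the ages compared. The replicates of an age differed by a median of 0.32 at 25, 0.35 at 30, 0.36 at 40 and 0.60 at 45 DAF. The steps are between means of 2 replicates, and how much of them is spread between replicates was not tested. The 4 mid-maturation arrays did not overlap with the 4 early-filling arrays for 11.9% of all probe sets on the higher side and 12.8% on the lower side. Of the probe sets with an informative symbol 25% were called in either direction.

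Some arrays stood apart from their replicates along the axis of age. On the first principal component of the 8 arrays, which held 33.7% of the variance, 45 DAF replicate 2 was at 179 while the other mid-maturation arrays were at 39.9 to 72.7, and 30 DAF replicate 1 was at -58.3 while the other early-filling arrays were at -102 to -95.6. The 45 DAF replicates correlated at 0.880, those of the other ages at 0.921 to 0.927, and 45 DAF replicate 2 correlated with the 50 DAF arrays at 0.856 to 0.866, while the other mid-maturation arrays did so at 0.766 to 0.795. Of the 189 probe sets called at least 8-fold higher, 145 had their highest mid-maturation signal in 45 DAF replicate 2, and of the 249 called at least 8-fold lower, 149 had their lowest early-filling signal in 30 DAF replicate 1. Without both arrays, an alternative added after seeing the data, 3180 probe sets were called higher and 4001 lower. The calls fell by more than 1.5 times when 1 of several other arrays was left out, to 1517 higher and 1793 lower without 30 DAF replicate 2, 1578 and 1795 without 25 DAF replicate 2 and 1998 and 2175 without 25 DAF replicate 1, and to 1990 higher without 40 DAF replicate 1.

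**Figure D2:**
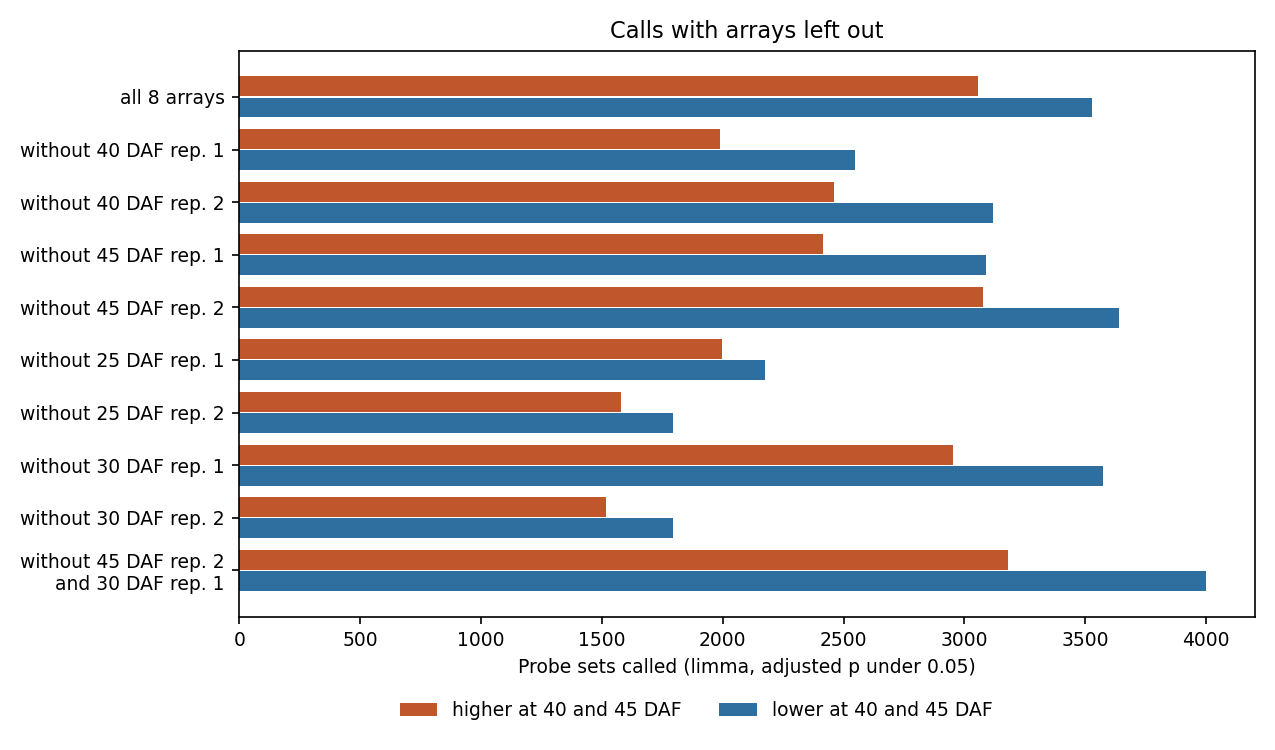
Bars give the number of probe sets called by limma at an adjusted p under 0.05 (horizontal axis), orange for higher and blue for lower at 40 and 45 DAF, with all 8 arrays (3055 and 3529), with each array left out in turn, and without both arrays that stood apart (3180 and 4001). The fewest calls were made without 30 DAF replicate 2 (1517 higher) and without 25 DAF replicate 2 (1578 higher).

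As a check of the labelled tissue, 15 probe sets of embryo reserves summed to signals of 639000 to 792700 on the mid-maturation arrays and 582700 to 786600 on the early-filling arrays. Probe sets taken as pod wall and leaf markers (vegetative storage proteins and chlorophyll-binding proteins, 18 probe sets) summed to 18460 to 36610 at mid-maturation and 107100 to 164100 in early filling, 10 of them were called lower, and 3 were under a signal of 50 on all arrays. CAB3, a chlorophyll-binding protein, had probe sets at 46649 and 31100 on 25 DAF replicate 1. The filling embryo is itself green, so this sum cannot tell pod wall or leaf tissue from the embryo. Seed coat markers (5 probe sets) summed to 34950 to 95530 at mid-maturation and 103100 to 144900 in early filling, and 3 were called lower. Whole seeds were extracted, so that fewer cells of a type and less of a transcript per cell cannot be told apart. What part a change in tissue shares had in any fall below was not tested. All printed signals refer to a common array median of 315.3, and the 4 signals of a period are listed by age and then by replicate number.

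Most probe sets of LEA, dehydrin and seed maturation proteins were higher. Of 41 such probe sets, found by symbol, 29 were called higher and none lower. Their median log2 difference was 1.66, where the median of all probe sets was 0.0064. Those called higher include PARP3, TENA_E and the oil body protein PM13, described below. The count is therefore not one of desiccation proteins alone. SLE2, a LEA protein of the Em type, had signals of 15858, 26941, 10878 and 50386 in mid-maturation seeds, against 76.9, 67.3, 342 and 189.6 in early-filling seeds. The groups lay far apart, with 45 DAF replicate 2 highest of all and the 30 DAF arrays above the 25 DAF arrays. The log2 difference was 7.34 ± 0.56 (SE, n = 4 and 4; limma, adjusted p = 0.000113). MAT1, a dehydrin, gave 13247, 14947, 4372 and 55089 at mid-maturation, against 160.3, 225, 259.8 and 491 in early filling, a log2 difference of 5.83 ± 0.49 (limma, adjusted p = 0.000172). Here 45 DAF replicate 1 was the lowest and 45 DAF replicate 2 the highest mid-maturation array, and both were still above every early-filling array. The seed maturation proteins PGMPM18 and MP2 averaged 13787 ± 13922 and 15502 ± 17321 at mid-maturation (SD, n = 4), against 410.4 ± 215 and 443 ± 124 in early filling. PM3 rose by 3.85 ± 0.32 on the log2 scale, at 33457, 34409.5, 20507 and 55249 in mid-maturation seeds and 1745, 2211, 4066 and 1909 in early-filling seeds. Among the 12 members not called were PM23, PM30 and PM37, whose log2 differences ran between -0.26 and 0.50. The count was 24 to 30 with 1 array left out and 29 without both arrays that stood apart, and with 1 probe set a gene 26 of 33 genes were higher.

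Transcripts of oil body proteins were also higher. PM13, annotated with the Arabidopsis locus of a caleosin, an oil body protein that binds calcium, had signals of 35857, 45711, 31384 and 62947 at mid-maturation, against 1174, 1101, 2985 and 1636 in early filling, with a log2 difference of 4.74 ± 0.32 (limma, adjusted p = 7.66e-05). A probe set without a symbol carries the Arabidopsis locus AT5G40420 of an oleosin, the protein that coats oil bodies, and gave 14152, 13731, 10776 and 14495 at mid-maturation, against 679, 437, 1710.3 and 1119.9 in early filling, a difference of 3.93 (limma, adjusted p = 0.000219). Another, with the oleosin locus AT3G01570, was already at 20274 to 36558 in early filling and was at 47419.6 to 53919 at mid-maturation, with a log2 difference of 0.86. The 4 mid-maturation arrays were above all early-filling arrays for all 3. Loci were taken from the study's own list of transcripts that changed over these arrays, so their directions are no independent evidence.

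Storage protein and protease inhibitor transcripts were abundant in both periods. Of 15 storage protein probe sets 3 were called higher and none lower, and the median log2 difference was 0.13. The share called was 20%, near the 17.5% of all probe sets. In the list of protease inhibitors and other seed proteins it was 7.14%. GY1, a glycinin, had signals of 101382, 80499, 80658 and 83055 at mid-maturation and 69791, 99709.9, 82938 and 65518 in early filling, and the ranges overlapped (log2 difference 0.13, limma, adjusted p = 0.697). CG-BETA-1, a subunit of beta-conglycinin, was at 68418 to 81604 at mid-maturation and 55266 to 69464 in early filling. GY3 had a negative difference that did not pass the test, at 18534, 26092, 34009.5 and 8068 at mid-maturation and 35445, 42935, 50951 and 38257 in early filling (difference -1.12, limma, adjusted p = 0.0547). All 4 mid-maturation values of GY3 were below all 4 early-filling values, and it was called without 40 DAF replicate 2 or 45 DAF replicate 1. Whether signals this near the top of the range are compressed, also for GY5 and the Kunitz trypsin inhibitors KTI1 and KTI3, was not tested. BG7S-2, a basic 7S globulin, stood out with 57910.5, 61213, 48220.5 and 66520.5 at mid-maturation, against 1048, 2281, 8981 and 2861 in early filling. Its 2 lowest signals were at 25 DAF and its highest early-filling signal was in 30 DAF replicate 1, and the log2 difference was 4.37 ± 0.51 (limma, adjusted p = 0.00069). The glycinin GY7 rose by 1.19 on the log2 scale, at 1149 to 2266 in mid-maturation seeds and 394 to 1012 in early-filling seeds, and 1 of 2 probe sets of CG-1, a conglycinin subunit, rose by 1.09. The call of GY7 was lost without 25 DAF replicate 1 or 2, 30 DAF replicate 2 or 40 DAF replicate 1 (limma, adjusted p up to 0.0891), and that of CG-1 without 30 DAF replicate 2 or 40 DAF replicate 1 (up to 0.0568). Among 14 probe sets of protease inhibitors and other seed proteins, BBI-2, a Bowman-Birk inhibitor of trypsin and chymotrypsin, alone was called (with 1 other without 45 DAF replicate 1), at 4413, 2069, 4139.8 and 1418 in mid-maturation seeds and 257, 352, 384 and 108 in early-filling seeds (log2 difference 3.45, limma, adjusted p = 0.000315).

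Most probe sets for protein-folding enzymes of the endoplasmic reticulum, where storage proteins are folded, were lower. All 14 probe sets had negative log2 differences, 8 were called lower and none higher, and the median was -1.09. PDIM-1, a protein disulfide isomerase, had signals of 1254, 1509.6, 1829 and 737 at mid-maturation, against 5842, 5778, 2576 and 5021 in early filling, a difference of -1.85 ± 0.32 (limma, adjusted p = 0.00441). Its lowest signal was in 45 DAF replicate 2 and its lowest early-filling signal in 30 DAF replicate 1. The chaperone BIP4, named after its values were seen, gave log2 differences of -2.32 and -1.75 in 2 probe sets. Without 25 DAF replicate 1, 25 DAF replicate 2, 30 DAF replicate 2 or 40 DAF replicate 1 the list's count was 4 and neither probe set of BIP4 was called (limma, adjusted p up to 0.0888). Ribosomal proteins and elongation factors moved less, with 6 of 16 lower, none higher (1 without 45 DAF replicate 2) and a median of -0.54. RPL2, of the large ribosomal subunit, gave 10841, 13679, 10977 and 9557 in mid-maturation seeds and 24049, 23969.5, 21335 and 19964 in early-filling seeds, with no overlap (limma, adjusted p = 0.0024).

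Several enzymes of fatty acid synthesis were lower, whereas no desaturase was called. Of 13 probe sets for fatty acid synthesis 5 were lower and none higher, with a median of -0.57. ACCC-2, the biotin carboxylase subunit of plastid acetyl-CoA carboxylase, which makes the malonyl-CoA for fatty acids, had signals of 3818, 3876, 4676 and 3864 at mid-maturation, against 13684, 14093, 9040.3 and 12065 in early filling. The mid-maturation signals lay close together and below all early-filling ones, of which 30 DAF replicate 1 was the lowest (log2 difference -1.57 ± 0.16, limma, adjusted p = 0.000394). ACCC-3 and KAS III, the condensing enzyme that starts the chain, differed by -1.36 and -0.95. The 13 desaturase probe sets, which include FAD2-1A, the seed oleate desaturase, had log2 differences of -0.66 to 0.69 and a median of 0.03, with 0 called by limma, 3 lower and none higher at an unadjusted p under 0.05. Without 45 DAF replicate 1 limma called 1 of them lower, and the unmoderated linear model, which called none of the 37593 probe sets, gives no information on them.

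Lipoxygenases, which oxidise polyunsaturated fatty acids, had the lowest median of the 35 gene lists. Of 26 probe sets 16 were lower and none higher, with a median log2 difference of -2.56 against 0.0064 over all probe sets. LOX7 had in 1 of its probe sets signals of 2.81, 5.94, 5.7 and 2.63 at mid-maturation, against 1584, 1061, 499 and 1622 in early filling. The mid-maturation signals were all below 50, a low level at which these signals are uncertain, so the log2 difference of -8.08 (limma, adjusted p = 6.99e-05) became -4.39 when 50 was added to each signal. Other called probe sets of LOX7 were at -4.62, -3.69 and -3.22. Of the fits with 1 array left out, 5 lost the call at -3.69 and 6 that at -3.22. In 1 of its probe sets LOX9 gave 72.3, 54.2, 176 and 29.5 at mid-maturation, against 5802, 4490.0, 3359 and 4511 in early filling, a difference of -6.05 ± 0.39 (limma, adjusted p = 6.99e-05). VLXB, a vegetative lipoxygenase, gave 284, 186, 381 and 133 at mid-maturation, against 4508, 3518, 1534 and 4312 in early filling. In each of these 3 the groups were far apart and 30 DAF replicate 1 was the lowest early-filling array. The seed lipoxygenases LOX1.1, LOX2 and LOX3 had log2 differences of 0.07 to 0.22 and were not called. The probe sets of LOXB1 did not run together, at log2 differences of -5.26 to 0.90, and related genes may share probes. With 1 probe set a gene, 6 of 10 lipoxygenase genes were lower, and with 1 array left out the count of probe sets was 13 to 16.

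Genes of jasmonate synthesis, which starts from lipoxygenase products, and of jasmonate signalling were mixed. Of 20 probe sets 6 were lower and 1 higher. Those lower were of the signalling repressor GmJAZ1 and of the synthesis genes AOC6 and AOC3. AOC3, named after its values were seen, differed by -1.15 and -0.91. Each of its calls was lost in 6 of the fits with 1 array left out. CYP74A1, of the family that holds the allene oxide synthases, rose by 1.51 ± 0.15 on the log2 scale, at 4829.9, 3669, 3594 and 5031 in mid-maturation seeds and 1405, 1674, 1487 and 1389 in early-filling seeds (limma, adjusted p = 0.000362). GmJAZ1, a repressor of jasmonate responses, averaged 1522 ± 202 at mid-maturation, against 3801 ± 838 in early filling (SD, n = 4), with a difference of -1.30. The allene oxide cyclase AOC6 fell by 1.80 on the log2 scale and lost its call without 25 DAF replicate 2 or 30 DAF replicate 2 (limma, adjusted p up to 0.0572), and the count of 6 was 2 without either of these and 3 without 25 DAF replicate 1, 30 DAF replicate 1, 40 DAF replicate 1 or 45 DAF replicate 1.

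Many light-harvesting transcripts were lower and stay-green genes higher. LHCP, a chlorophyll a/b binding protein, had in 1 of its probe sets signals of 673, 438, 585 and 744 in mid-maturation seeds, against 9228, 9871, 5241 and 8042 in early-filling seeds. Both 30 DAF signals were below both 25 DAF signals, with a log2 step of -0.56. The groups did not come near each other, and the log2 difference between periods was -3.72 ± 0.23 (limma, adjusted p = 5.13e-05). CAB3, of the same family, gave in 1 of its probe sets 7151, 4280.0, 6959 and 4831 at mid-maturation, against 31100.1, 38846, 25006 and 25514 in early filling, a difference of -2.39. Other probe sets of CAB3 were called lower at -2.05 and -2.43, while those at -0.34 and 0.81 were not called. Over 20 probe sets of light harvesting and photosynthesis found by symbol, 9 were lower and none higher, with a median of -0.72, and without 45 DAF replicate 2 the count was 14 lower and 1 higher, as 1 was higher without 45 DAF replicate 1. The Rubisco activases RCA11, RCA14, RCAALPHA and RCABETA were not called, at log2 differences of -0.75 to 0.43. In the study's own list of changing transcripts 15 probe sets carry loci of photosystem, antenna and other photosynthetic proteins. Of these, 3 are of LHCP and CAB3, and all 15 were lower, with a median of -2.29. Among them was the probe set for the photosystem I antenna protein of AT3G54890, at 3177, 1626, 2195 and 2258 in mid-maturation seeds and 10289, 10495, 8602 and 8212 in early-filling seeds. Of the 1728 probe sets with such a locus, 293 were called lower and 442 higher, and a list drawn from them is no independent evidence.

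Among 13 probe sets of chlorophyll and heme genes found by symbol, 4 were lower and 4 higher. Without 25 DAF replicate 1, 25 DAF replicate 2, 30 DAF replicate 2 or 40 DAF replicate 2 the number lower was 2, while the number higher was 4 with each array left out. CPX, a coproporphyrinogen oxidase on the way to chlorophyll and heme, had signals of 1771, 849, 1316 and 1529 at mid-maturation, against 3877, 4154, 4805 and 3916 in early filling (log2 difference -1.66, limma, adjusted p = 0.000772), and CHLH, a subunit of the magnesium chelatase, differed by -0.99. SGR1, a stay-green protein that starts chlorophyll breakdown, gave 1678, 1419.8, 956 and 4449.9 at mid-maturation, against 288, 295, 309 and 284 in early filling. The early-filling arrays were nearly equal, while 45 DAF replicate 2 was far above the other mid-maturation arrays, and the difference was 2.60 ± 0.36 (limma, adjusted p = 0.00147). SGR2, named after its values were seen, rose by 2.55. VTE5, a phytol kinase that returns phytol from chlorophyll to tocopherol, fell by 2.61 on the log2 scale, at 191, 92.8, 197 and 214 in mid-maturation seeds and 928, 1040.2, 1101 and 980.2 in early-filling seeds. HPPD, which makes the other tocopherol precursor, rose by 1.84 in 1 of 3 called probe sets, which gave 1007, 677, 406 and 4657 at mid-maturation, against 261, 329, 264 and 349 in early filling. Here 45 DAF replicate 2 was far above the other arrays, the difference was 1.17 without it, and the call was lost without 25 DAF replicate 1, 25 DAF replicate 2, 30 DAF replicate 1, 30 DAF replicate 2 or 40 DAF replicate 1 (limma, adjusted p up to 0.124).

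**Figure D3:**
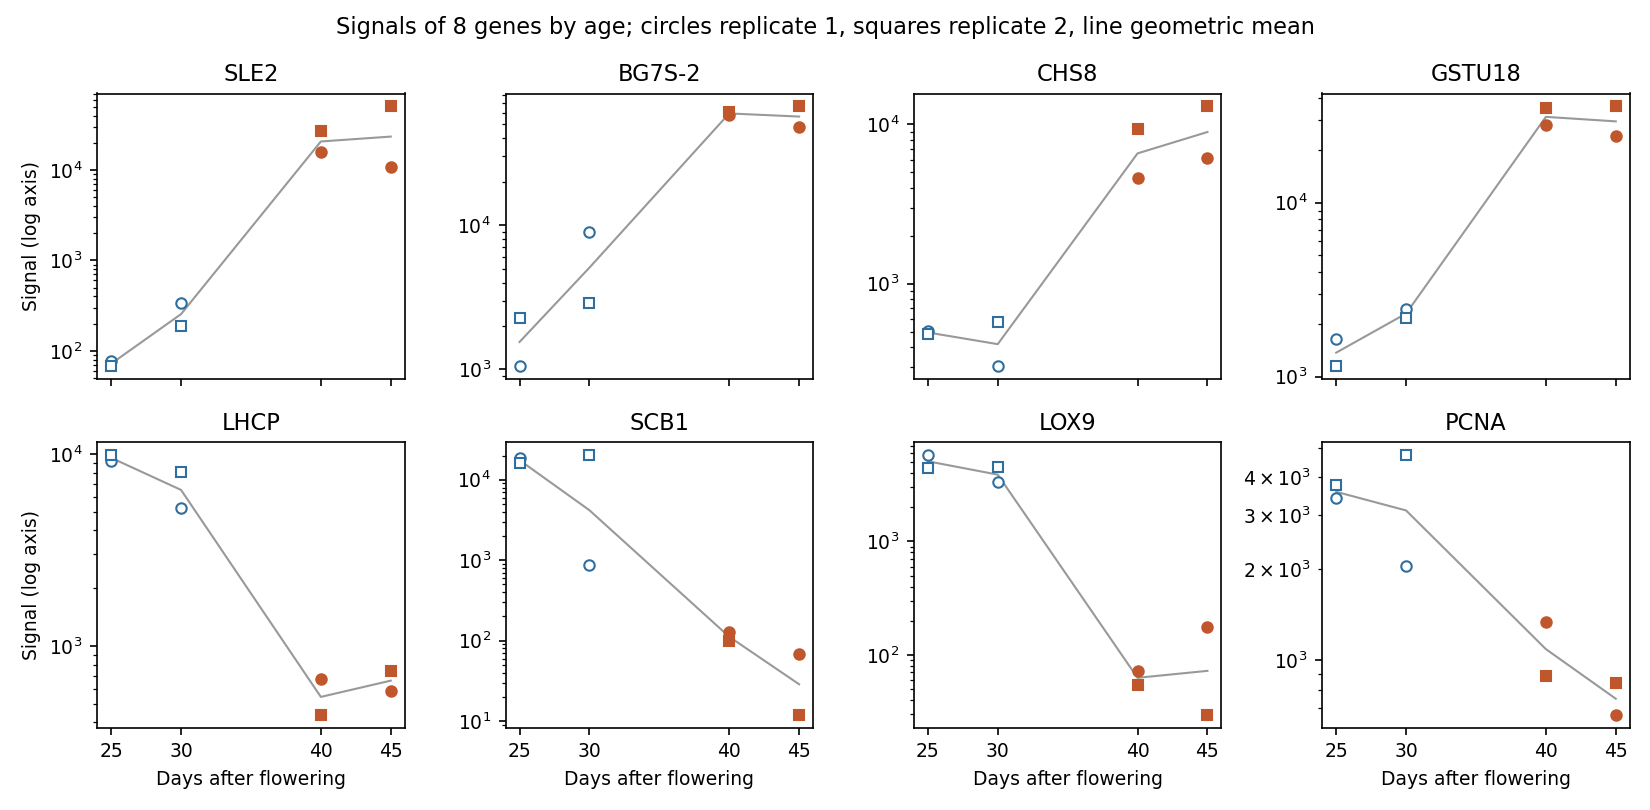
Signals of 8 genes on each array (vertical axis, log scale, common array median) by age in days after flowering (horizontal axis), with circles for replicate 1, squares for replicate 2, open blue at 25 and 30 DAF and filled orange at 40 and 45 DAF; the line joins the geometric means of the replicates. The genes of the top row were called higher and those of the bottom row lower, and SCB1 at 30 DAF splits into 862 and 20306.

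Isoflavonoid enzymes split within the pathway. Of 55 probe sets 21 were higher and 12 lower. CHS8, a chalcone synthase, which makes the flavonoid skeleton, had in 1 of its probe sets signals of 4610.4, 9386, 6195 and 12961 at mid-maturation, against 508, 481, 303 and 575 in early filling. Replicate 2 was above replicate 1 at both 40 and 45 DAF, and the lowest mid-maturation signal was still far above the highest early-filling one (log2 difference 4.08 ± 0.22, limma, adjusted p = 5.13e-05). HIDH, the dehydratase that completes the isoflavone ring, gave 2142, 3559.7, 2461 and 6319 at mid-maturation, against 375, 428, 273 and 471 in early filling, a difference of 3.12. PAL2.1, a phenylalanine ammonia-lyase at the entry of the pathway, gave 9019.7, 12425, 10424 and 7737 at mid-maturation and 2056, 1448, 1809.7 and 1936 in early filling (difference 2.44, limma, adjusted p = 9.67e-05). Other members, named after their values were seen, were the chalcone reductase CHR1 with log2 differences of 1.70 and 3.60 (the second not called without 25 DAF replicate 2, limma, adjusted p = 0.0555) and the isoflavone synthase IFS2 with 1.60 on the higher side, and on the lower side the isoflavone reductase IFR1 with -2.21 to -1.05 and the chalcone isomerases CHI1B1 with -2.33 to -1.23 and CHI3A1 with -2.18 and -1.58. The 21 higher were 18 to 21 with 1 array left out, whereas the 12 lower were 2 without 25 DAF replicate 1, 25 DAF replicate 2 or 30 DAF replicate 2, and 2 with 1 probe set a gene. In the proanthocyanidin branch LAR1, a leucoanthocyanidin reductase, had signals of 103, 241, 171 and 10 at mid-maturation, against 1029, 939.8, 354 and 537 in early filling, and lost its call without 25 DAF replicate 1, 25 DAF replicate 2, 30 DAF replicate 2 or 40 DAF replicate 1 (limma, adjusted p up to 0.121). Over the 34 probe sets of the general phenylpropanoid, anthocyanin and proanthocyanidin list 5 were higher and 3 lower, and with 1 array left out the number higher was 3 (without an array of 25 or 40 DAF or 45 DAF replicate 1) to 8 (without 45 DAF replicate 2) and the number lower 0 (without 25 DAF replicate 1, 25 DAF replicate 2, 30 DAF replicate 2 or 40 DAF replicate 1) to 7 (without 40 DAF replicate 2 or 45 DAF replicate 2).

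Seed coat transcripts included some of the largest falls. SCB1, a BURP domain protein of the seed coat, had signals of 128, 97.9, 69 and 12 at mid-maturation, against 18855, 16289.5, 862 and 20306 in early filling. The early-filling arrays other than 30 DAF replicate 1 lay close together, that array was at 862, and every mid-maturation array was lower still. The log2 difference was -7.24 ± 1.04 (limma, adjusted p = 0.00179). SSTP-1, a subtilisin-type protease of the seed coat, gave in 1 of its probe sets 1311, 1183, 1425 and 612 at mid-maturation, against 43649, 43452, 13106 and 40421 in early filling, a difference of -4.88 ± 0.40 (limma, adjusted p = 0.000172). Again 30 DAF replicate 1 was the lowest early-filling array. Another probe set of SSTP-1 differed by only -0.72 (limma, adjusted p = 0.033), and 6 of the fits with 1 array left out lost that call. The seed coat peroxidase Ep did not follow them, at 19104 to 33326 in mid-maturation seeds and 21855 to 30598 in early-filling seeds, and HPS, a hydrophobic protein of the seed surface, was at 60539.5, 53709, 56142 and 14926 at mid-maturation and 50317, 62808, 58074 and 49383 in early filling, with only 45 DAF replicate 2 below the rest. Of 35 probe sets for seed coat and cell wall proteins 9 were higher and 6 lower. CEL12, an endoglucanase named by several probe sets, rose by 1.11 to 1.33 on the log2 scale, with mean signals of 4233 ± 614 at mid-maturation and 1898 ± 85.4 in early filling in 1 of them (SD, n = 4), while the proline-rich proteins SBPRP and PRP3 differed by -3.79 and -1.72. With 1 probe set a gene the counts were 3 higher and 4 lower.

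Some transcripts of DNA replication were lower. All 4 probe sets of PCNA, the sliding clamp of DNA replication, were lower by 1.88 to 2.62 on the log2 scale, and 1 of them gave 1336, 889, 663 and 846 at mid-maturation, against 3407, 3759.9, 2044 and 4727 in early filling. Within early filling 30 DAF replicate 1 was the lowest, and it was above every mid-maturation array. The list of histones, replication and cell cycle genes held 12 probe sets, 5 of them lower, none higher (1 without 40 DAF replicate 2) and the median -1.18, but the 2 H4 histone probe sets were at 1.34 and 1.92 without a call. TUBB, a beta-tubulin, fell by 0.95 on the log2 scale, at 4957, 5565, 6031 and 3238 in mid-maturation seeds and 9685, 8827, 8459.8 and 10383 in early-filling seeds.

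Aquaporins, the channels that carry water across membranes, were lower in 14 of 45 probe sets and higher in 1, with a median of -0.42. SPCP1 gave 3472, 3139, 3389.7 and 3638 at mid-maturation, against 20074, 20935, 14135 and 17226 in early filling. The groups were far apart, and the difference was -2.39 ± 0.15 (limma, adjusted p = 5.13e-05). PIP1-6, of the plasma membrane, gave 273, 321, 648 and 9.83 at mid-maturation, against 3818, 3293, 1757 and 3113 in early filling, and without 25 DAF replicate 2 or 30 DAF replicate 2 it was not called (limma, adjusted p up to 0.0666). NIP1-8, named after its values were seen, was the member called higher, at a difference of 1.33, and kept its call only when the array left out was 45 DAF replicate 2 (limma, adjusted p up to 0.0813 without another array). The number lower was 8 without 30 DAF replicate 2 and 9 without 25 DAF replicate 1 or 2, and with 1 probe set a gene 5 of 23 genes were lower and 1 higher.

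Sucrose synthase and galactinol synthase moved in opposite directions. SS, a sucrose synthase that cleaves imported sucrose, had signals of 18437, 14159, 15858 and 18201 at mid-maturation, against 28497, 37639, 26953 and 33196 in early filling, a log2 difference of -0.92 ± 0.16 (limma, adjusted p = 0.00427). GOLS, a galactinol synthase that starts the raffinose sugars of dry seeds, gave 1721, 1254, 330.0 and 4158 at mid-maturation, against 95.6, 144, 219 and 78.3 in early filling, a difference of 3.40 ± 0.63 (limma, adjusted p = 0.00573). The 4 mid-maturation signals of GOLS spread widely, with 45 DAF replicate 1 the lowest and replicate 2 the highest, and none overlapped with early filling. The starch synthase GBSSIa had log2 differences of -0.49 to -0.18 and was not called. Over 21 probe sets of starch and sucrose enzymes 3 were lower, all of SS, and 1 higher (2 higher without 40 DAF replicate 2 or 45 DAF replicate 1, and 5 lower without both arrays that stood apart). Of 10 SWEET sugar transporter probe sets only SWEET34 was called, with a difference of 0.69, and its call was lost without any one of the 8 arrays (limma, adjusted p up to 0.123). In glycolysis, the pentose phosphate pathway and carboxylation by PEP carboxylase 6 of 35 probe sets were lower and none higher. The number lower was 3 without 25 DAF replicate 1, 25 DAF replicate 2 or 30 DAF replicate 2. The share called was 17.1%, near the 17.5% of all probe sets, as was the 19% of the starch and sucrose list. Of the SWEET probe sets 10% were called. A probe set of FBP, a fructose bisphosphatase, fell by 1.86 on the log2 scale, and another was at 1.45 without a call.

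Nitrogen assimilation was mixed, with 9 of 45 probe sets lower and 5 higher. GS1-GAMMA, a cytosolic glutamine synthetase, had signals of 1157, 1037, 1625 and 436 at mid-maturation, against 3923, 2501, 2696 and 2804 in early filling (log2 difference -1.61, limma, adjusted p = 0.00427), while a probe set of GS1alpha, named after its values were seen, differed by 3.28 and was not called without 25 DAF replicate 1, 25 DAF replicate 2, 30 DAF replicate 2 or 40 DAF replicate 1. AAH, allantoate amidohydrolase, which releases the nitrogen of ureides, rose to 1865, 1700.0, 1535 and 2114 at mid-maturation, against 944, 1035, 1089 and 929 in early filling. ALAAT1, an alanine aminotransferase, fell by 0.80 on the log2 scale. The 9 lower became 4 without 25 DAF replicate 2 and 5 without 30 DAF replicate 2 or 45 DAF replicate 1. In inositol and phytate synthesis 2 of 15 probe sets, of ITPK4 and MIPS4, were lower. That is 13.3%, against 17.5% of all probe sets. Neither call held without 25 DAF replicate 1, 25 DAF replicate 2 or 30 DAF replicate 2.

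Among proteases, the vacuolar processing enzymes VPE and VPE2, which cut seed proteins in the vacuole, were higher. VPE had signals of 14292, 15683, 15288 and 16881 at mid-maturation, against 8279, 8327, 8482 and 7353 in early filling. The spread in each period was small and the log2 difference was 0.94 ± 0.12 (limma, adjusted p = 0.00121). VPE2 differed by 1.52. In the list of proteases and acid phosphatases 4 of 20 probe sets were higher and 7 lower, the lower ones being of SSTP-1 and the purple acid phosphatases PAP3 and PAP25, enzymes that free phosphate.

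Glutathione transferases moved strongly in both directions, with 12 of 58 probe sets higher and 8 lower. GSTU18 had signals of 27782, 34918, 24087 and 35728 at mid-maturation, against 1644, 1144, 2429.8 and 2181 in early filling, with a log2 difference of 4.09 ± 0.24 (limma, adjusted p = 5.13e-05). GSTU3 ran the other way, at 2521, 1313, 2832 and 1075 in mid-maturation seeds and 17601, 16699.6, 11219.5 and 16511 in early-filling seeds, a difference of -3.10 ± 0.27 (limma, adjusted p = 0.000212). Both genes belong to the tau class, which is particular to plants, and neither overlapped between periods. Among 33 probe sets of redox enzymes 5 were higher and 3 lower, and those assigned to APX1, an ascorbate peroxidase, disagreed, with log2 differences of 1.37 and 1.27 in those that rose and -1.03 and -0.91 in those that fell. The probe sets of APX1 that fell were not called without 25 DAF replicate 2 or 30 DAF replicate 2 (limma, adjusted p up to 0.0942), and the redox list then had 2 higher and 1 lower, as it had 2 higher without 25 DAF replicate 1 or 40 DAF replicate 1 and 3 higher without 40 DAF replicate 2. DHAR4, a dehydroascorbate reductase, was at 6855 to 10418 in mid-maturation seeds and 15424 to 21716 in early-filling seeds (limma, adjusted p = 0.00361).

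Of 31 probe sets of hormone genes 3 were higher and 3 lower, so that 19.4% were called, near the 17.5% of all probe sets. GAI1, a DELLA repressor of gibberellin responses, had signals of 2058, 3177, 1861 and 1144 at mid-maturation, against 760.3, 607, 773 and 588 in early filling, a difference of 1.51. GA20OX3, a gibberellin synthesis enzyme, gave 128, 109.6, 217 and 118 at mid-maturation and 321, 345, 342 and 399.7 in early filling, a difference of -1.35. LAX11, an auxin influx carrier, fell by 2.33 on the log2 scale, with all mid-maturation signals within 106 to 126 and the early-filling signals within 328 to 777. The gibberellin-regulated GASA peptides had 2 of 20 probe sets higher, both of GASA14, and 4 lower, of which GASA29 differed most, at -2.19. The number lower was 2 without 25 DAF replicate 2, 30 DAF replicate 2 or 40 DAF replicate 1.

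Among the lists of transcription factors the NAC family had the largest share called higher. Of 41 NAC probe sets 11 were higher and 2 lower, with a median log2 difference of 0.81. GmNAC109 had signals of 5067, 6965, 4967 and 13008 at mid-maturation, against 1629.8, 1689, 1518 and 1364 in early filling, a difference of 2.16 ± 0.24 (limma, adjusted p = 0.000527). NAC12 gave 611, 234, 132 and 3538 at mid-maturation and 50.2, 61, 8.32 and 27.4 in early filling, so that 45 DAF replicate 2 was far above the rest, and its log2 difference was 4.14 with all arrays, 3.29 without that array and 2.51 without both arrays that stood apart. With 1 array left out 9 to 12 NAC probe sets were higher and 0 (without 25 DAF replicate 2 or 30 DAF replicate 2) to 4 (without 45 DAF replicate 2) lower. MYB factors had 14 of 109 probe sets higher and 7 lower, led by MYB92 at 1748, 2363, 1474 and 3976 in mid-maturation seeds and 208, 189.9, 238 and 272 in early-filling seeds (difference 3.30, limma, adjusted p = 0.000113). The share of MYB probe sets called was 19.3%, near the 17.5% of all probe sets. The MYB counts fell to 8 higher and 3 lower without 25 DAF replicate 2 or 30 DAF replicate 2, to 9 and 4 without 40 DAF replicate 1, and to 3 lower without 25 DAF replicate 1. bZIP factors, the family that holds the regulators of abscisic acid responses, had 10 of 103 higher and 1 lower, of which BZIP59 differed by 1.02 with signals of 5784, 6373, 6457 and 6226 at mid-maturation and 3608, 2922, 2641 and 3141 in early filling. In either direction 10.7% of the bZIP probe sets were called, against 17.5% of all probe sets. Without both arrays that stood apart 17 bZIP probe sets were higher, and without 25 DAF replicate 2 none was lower. Of 24 probe sets of AP2, ERF and DREB factors 2 were called, both higher and both of DREB2. That is 8.33%, against 17.5% of all probe sets. In 1 of them DREB2, a dehydration-responsive AP2 factor, gave 1399, 1141, 709 and 3695 at mid-maturation. Its early-filling signals there were 136, 164, 176 and 182. The other rose by 1.99 on the log2 scale and lost its call without 25 DAF replicate 2 or 30 DAF replicate 2.

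LEC1-A, an NF-Y subunit whose Arabidopsis counterpart directs embryo development, was lower, with signals of 1718, 1049.9, 1507 and 1209 in mid-maturation seeds, against 3465, 3422, 3442 and 3849 in early-filling seeds. The early-filling arrays were within a narrow range and above every mid-maturation array, and the difference was -1.39 ± 0.15 (limma, adjusted p = 0.000509). WRKY factors had 4 of 104 probe sets called, all higher. That is 3.85%, against 17.5% of all probe sets. The number higher was 0 without 25 DAF replicate 1, 25 DAF replicate 2 or 40 DAF replicate 1. It was 1 without 40 DAF replicate 2, 2 without 30 DAF replicate 2 and 9 without both arrays that stood apart. Of 34 probe sets of heat shock proteins and factors found by symbol 4 were higher, all of heat shock factors, and 2 lower, both of HSP90-1, and the number lower was 4 without 45 DAF replicate 2, 8 without 30 DAF replicate 1, 1 without 30 DAF replicate 2 or an array of 25 or 40 DAF, and 11 without both arrays that stood apart. The number higher was 1 without 25 DAF replicate 2 or 30 DAF replicate 2 and 2 without 25 DAF replicate 1. With all arrays 17.6% of the heat shock probe sets were called, near the 17.5% of all probe sets.

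**Figure D4:**
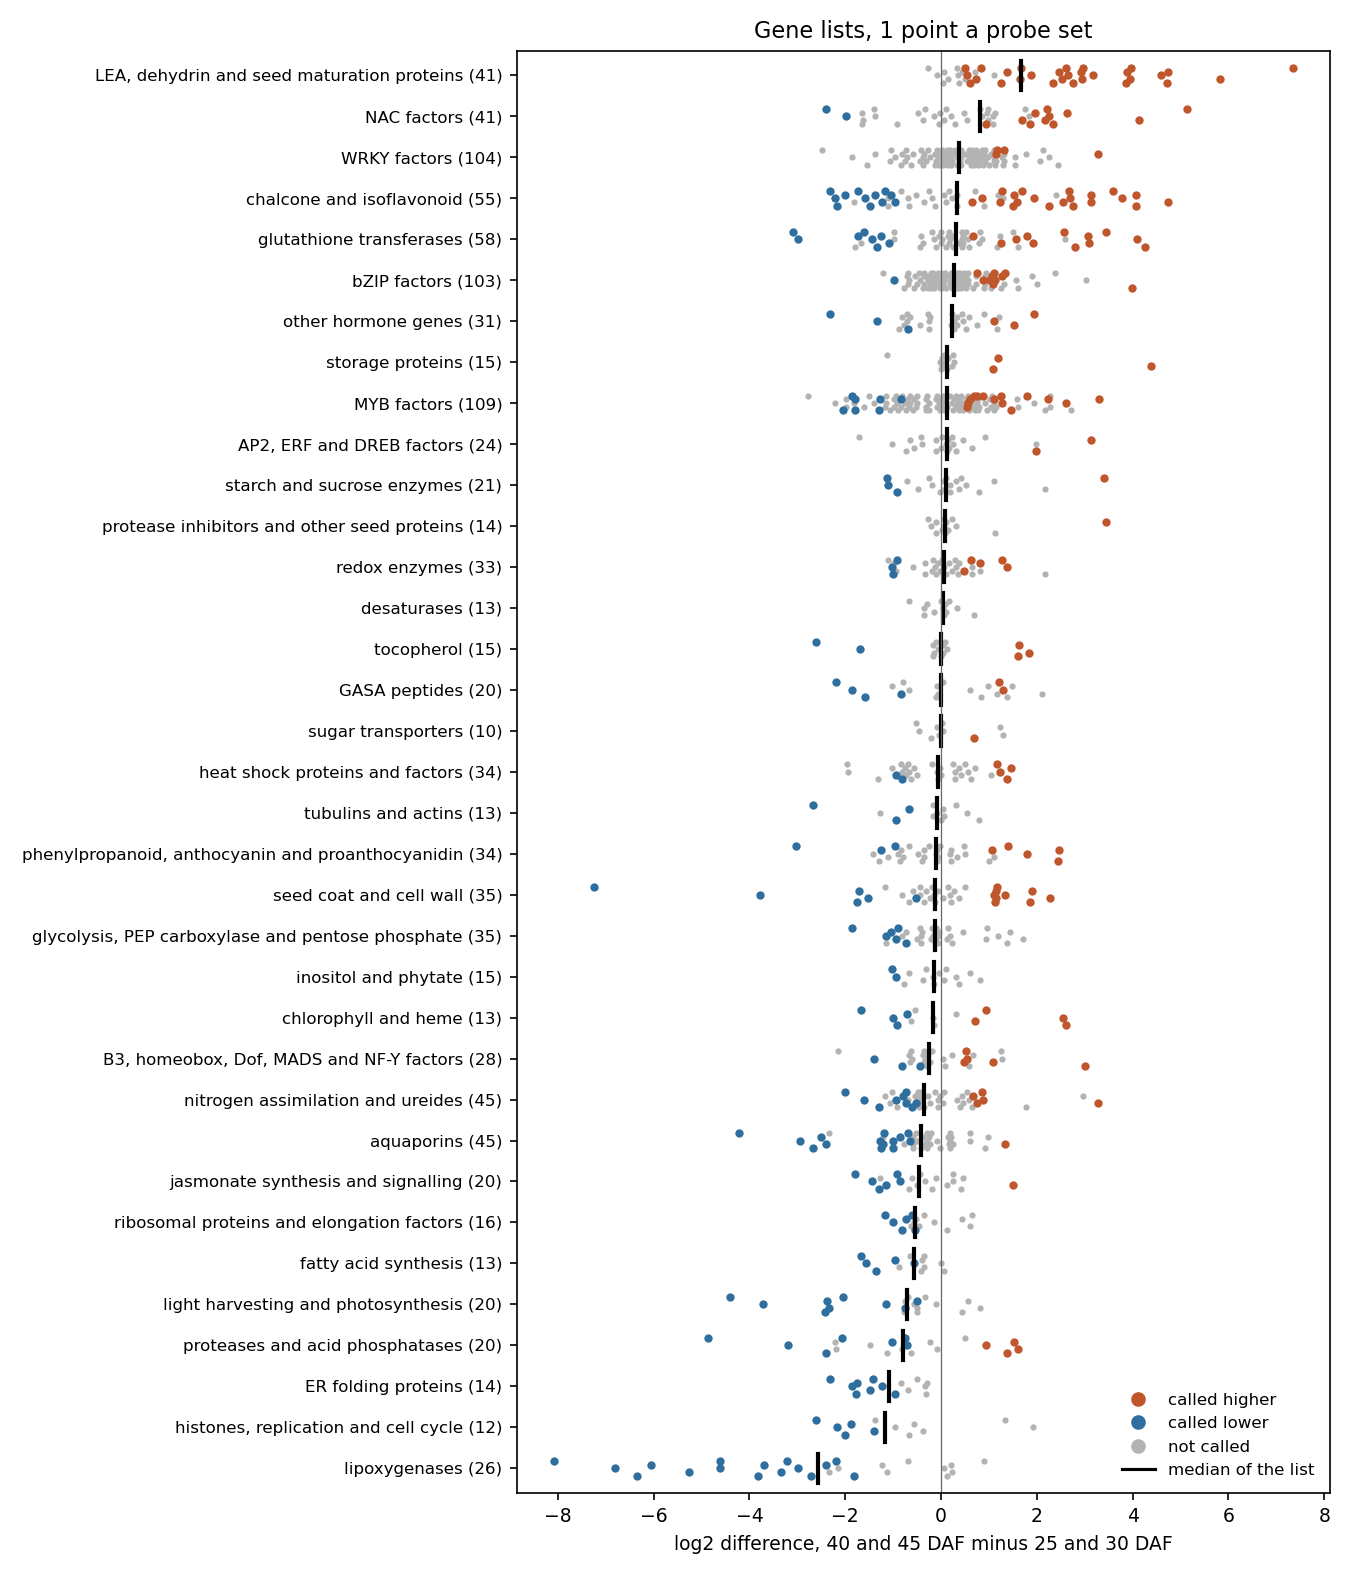
Log2 differences, 40 and 45 DAF minus 25 and 30 DAF (horizontal axis), of the probe sets of 35 gene lists, ordered by their medians (black bars), with the number of probe sets in brackets; orange points were called higher, blue points lower and grey points neither. LEA, dehydrin and seed maturation proteins have the highest median (1.66) and lipoxygenases the lowest (-2.56).

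Across the genes with an informative symbol, among probe sets without overlap and at or above the median signal, the largest rises after SLE2 and MAT1 were of SGlu11, PM13, CHS8, PGMPM18, MP2, BG7S-2, GSTU27, SEOC, NAC12 and GSTU18, at log2 differences of 4.97 to 4.09. SEOC, a protein that plugs sieve elements, had signals of 572, 828, 881 and 499.9 at mid-maturation, against 8.35, 8.32, 208 and 117 in early filling, and lost its call without 25 DAF replicate 2 (limma, adjusted p = 0.0574). The largest falls after LOX7 and SCB1 were of LOX9, LOXB1, SSTP-1, GER10, LHCP, VSPA, PIP1-6, VLXB, SBPRP and EBP, at -6.82 to -3.70. In 1 of its probe sets VSPA, a vegetative storage protein, gave 26.7, 111, 99.1 and 2.02 at mid-maturation. The early-filling signals were 473, 573, 426 and 880.3. That call was lost without 25 DAF replicate 1 or 2, 30 DAF replicate 2 or 40 DAF replicate 1 (limma, adjusted p up to 0.0775). Other probe sets of VSPA were called lower at -2.81, -2.53 and -1.98, while those at -1.10, -0.74, -0.58 and 0.04 were not called. The call at -1.98 was lost in 5 of the fits with 1 array left out. Folds of low signals are uncertain, and with 50 added to each signal the log2 differences were -2.90 for LOXB1, -2.95 for GER10, -2.64 for VSPA, 2.76 for GSTU27 and 2.72 for SEOC. Among called probe sets, 182 of those higher had an early-filling mean under 50 and 227 of those lower a mid-maturation mean under 50.

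**Figure D5:**
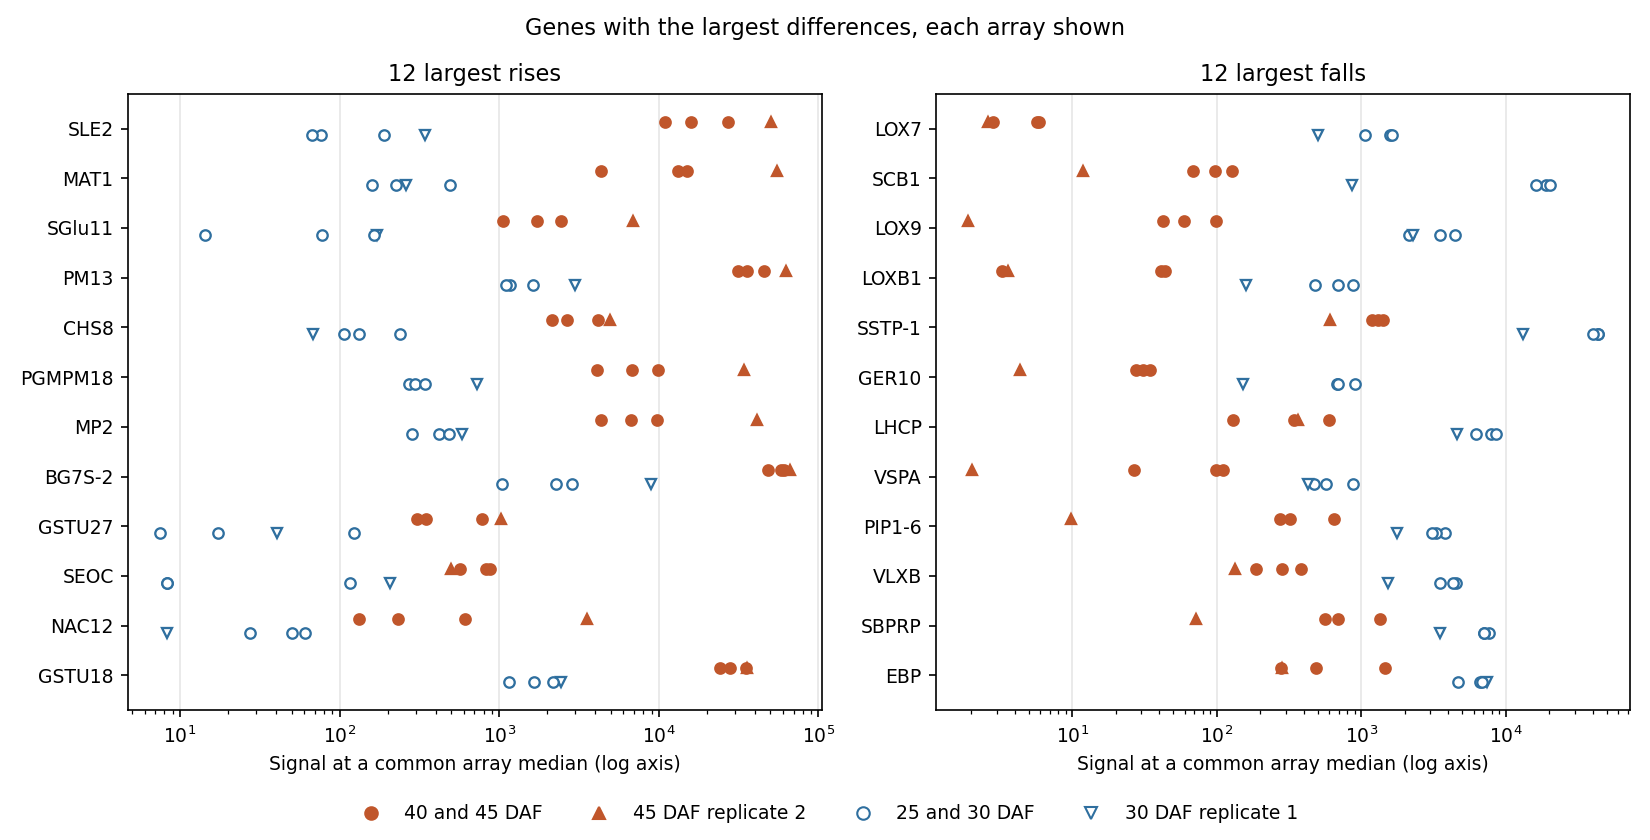
Signals on each array (horizontal axis, log scale, common array median) of the 12 largest rises (left) and the 12 largest falls (right) among genes with an informative symbol; filled orange for 40 and 45 DAF, with 45 DAF replicate 2 as a triangle, and open blue for 25 and 30 DAF, with 30 DAF replicate 1 as an inverted triangle. The genes were chosen to have no overlap between periods. The farthest mid-maturation array is often 45 DAF replicate 2, as for NAC12 (3538) and PIP1-6 (9.83).

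Most of the changing probe sets could not be given an informative name. Of those called, without overlap and at or above the median signal, 2365 higher and 2731 lower had no informative symbol, whereas 205 higher and 203 lower had one. The largest rises among them differed by 8.12 and 7.33 on the log2 scale, and the larger of them gave 6003, 12827, 3944 and 20233 in mid-maturation seeds and 33.9, 31.3, 77.6 and 12.4 in early-filling seeds. The largest falls were of -7.39 and -7.20, and the first of these probe sets gave 30.3, 7.59, 9.3 and 41.3 in mid-maturation seeds and 4938, 5148, 525 and 5287 in early-filling seeds. Its lowest early-filling signal was that of 30 DAF replicate 1.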

How the data were processed

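Total RNA from whole developing seeds was hybridised to 10 Affymetrix Soybean Genome Arrays, of which the 8 at 25, 30, 40 and 45 days after flowering were used. The authors deposited 1 table of 37593 probe sets holding intensity values (MAS 5.0 signals, globally scaled per array), with no detection calls. It held 0 value columns that belong to none of the samples. The methods state a scaling target for the array mean, but the deposited means were 1344.3 to 1425.5, above that target, so the absolute scale of the signals is not settled; a factor common to an array cancels in the centring. Array medians ran from 303.8 to 325.2, and depth has no meaning for arrays, whose number limits the precision. The log2 signals of an array were centred by subtracting their median, and printed signals were rescaled to a common median of 315.3.

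Differences were fitted with limma 3.58.1 in R 4.3.3 (statmod 1.5.0; empirical Bayes variance with a trend), with period and replicate number as fixed effects, since the study's linear models hold the replicate, and p-values were adjusted by Benjamini-Hochberg over all probe sets. Ages within a period count as spread. Same-numbered replicates did not deviate together (correlations of -0.0336 to 0.0302 between ages). The scripts were tested on simulated data.

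Gene names came from GEO's platform annotation: 8677 probe sets had 1 symbol, 370 several and 28546 none, and 8652 of the 8677 were found in RefSeq's table for Glycine_max_v4.0. Probe sets with several symbols were not named. Probe sets whose names end in _s_at or _x_at can measure near-identical genes. Probe sets of 1 gene were counted separately unless stated. Of the 35 gene lists 4 were added after the symbols were seen, and the members and lists were chosen with earlier results of these data known. A few further lists used Arabidopsis loci from a shortened copy of the study's table of its own called transcripts, and were chosen after their values were seen.

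Genes were named by rule: the 12 largest rises and 12 largest falls among called probe sets with an informative symbol, no overlap between periods and a signal at or above the array median in the higher period, the 4 or fewer called members of a list with the lowest adjusted p, the tissue markers, and 2 unnamed probe sets in each direction. In the rankings of rises and falls a gene stands by its probe set with the largest difference. Other genes were named after their values were seen. Alternatives were the replicate block, ages in place of periods, all 10 arrays, quantile or no centring, other variance priors, 50 added to the signals, a filter at the array median, stricter thresholds, a linear model of ages without moderation, single mid-maturation ages and each array left out. The fit without both arrays that stood apart was added after seeing the data.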

Additional observations from a re-analysis of the deposited data

Results flagged for a closer look

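Among the genes named by rule, the 4 arrays of each period were searched for 1 array set apart from the other 3 by a gap that chance gives in about 1 of 20 groups. Of 344 combinations of probe set and period 27 had such an array, 10 times 45 DAF replicate 2, 10 times 30 DAF replicate 1 and 3 times 30 DAF replicate 2.

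In mid-maturation seeds 45 DAF replicate 2 was the lowest for GER10 (4.34, the others 27.6 to 34.8), PRP3 (2076, the others 3475 to 3806), SOY69 (102, the others 491 to 533), DHAR4 (6855, the others 9844 to 10418), APX1 in 1 probe set (3331, the others 6532 to 7365), MDH-1 in 1 probe set (2658, the others 4652 to 5175) and the seed surface protein HPS (14926, the others 53709 to 60539.5). It was the highest for GY7 (2266, the others 1149 to 1267), BZIP95 (3333, the others 2051 to 2111) and VSP27 (27.9, the others 4.26 to 5.54). The remaining mid-maturation cases were ACCC-2 with 4676 in 45 DAF replicate 1 (the others 3818 to 3876), VTE5 with 92.8 in 40 DAF replicate 2 (the others 191 to 214) and GY1 with 101382 in 40 DAF replicate 1 (the others 80499 to 83055).

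In early-filling seeds 30 DAF replicate 1 was the lowest for SCB1 (862, the others 16289.5 to 20306.5), SSTP-1 (13106, the others 40421 to 43649), GER10 (151, the others 678 to 907), SBPRP (3531, the others 7068 to 7619), the unnamed probe set with the largest fall (525, the others 4938 to 5287), SOY69 (1324, the others 2471 to 2628), HSP90-1 in 1 probe set (5554, the others 10762 to 12316), GSTU3 (11220, the others 16511 to 17601), MDH-1 in 1 probe set (5788, the others 8271 to 8826) and MIPS4 (222, the others 395 to 423). The remaining early-filling cases were WRKY34 with 16.3 in 30 DAF replicate 2 (the others 1.52 to 2.06), LEC1-A with 3849 in the same array (the others 3422 to 3465), VPE with 7353 in the same array (the others 8279 to 8482) and PAL2.1 in 1 probe set with 76.7 in 25 DAF replicate 2 (the others 168 to 191).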

How the results depend on the processing

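None of the 6584 probe sets called with all 8 arrays changed sign under any alternative run. For several alternatives this was fixed in advance, since the balanced design gives them the same log2 difference as the main fit. These are the fits without the replicate block, with ages in place of periods, with all 10 arrays or with other variance priors, the filter, the stricter thresholds and the unmoderated model. With all 8 arrays 3055 probe sets were higher and 3529 lower. The counts were 1482 higher and 1784 lower with a prior variance without trend, 1173 and 1488 at an adjusted p under 0.01, 1548 and 1913 with at least 2-fold required, and 1223 and 1882 at 45 DAF alone, against 25 and 30 DAF. A linear model without moderation called 0 and 0, with 8192 probe sets at an unadjusted p under 0.05. It fits each age and the replicate number, as the study's model does, and contrasts the later with the earlier ages of the 8 arrays. It therefore differs from the main fit in its model as well as in moderation. With moderation the model of ages called 2099 higher and 2599 lower. Adjustment was by Benjamini-Hochberg, where the study ran an overall F-test across all ages with q-values. With 1 array left out the counts ran from 1517 to 3078 higher and from 1793 to 3640 lower. Same-numbered replicates did not deviate together, and without the replicate block 3245 were higher and 3752 lower. Without centring 3284 were higher and 3228 lower. Quantile normalization, signals without centring, ages in place of periods, all 10 arrays, a robust prior, 50 added to the signals, the filter and 40 DAF alone kept both counts within 1.5 times.

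Of the 172 probe sets named by rule 149 were called, and 96 of them kept the call under every alternative but the unmoderated model. Leaving out 30 DAF replicate 2 cost 23 of these calls, 25 DAF replicate 2 cost 22 and 45 DAF alone 32. Log2 differences of signals near or under 50 are the least certain. No detection calls were used here, so whether such a transcript was present cannot be stated.

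Of the 172 probe sets named by rule 16 changed sign under an alternative, none of them called with all 8 arrays. The log2 differences that follow are of those that had the other sign. With quantile normalization they were -0.024 for KTI3, -0.098 for KTI1, -0.046 for GY1, -0.076 for GY5 and -0.015 for VSPA. Without centring they were 0.019 and 0.0091 for GY2. At 40 DAF alone they were 0.12 and 0.060 for GY2, 0.040 for KTI-2, 0.056 for HPS, 0.15 for Ep and -0.29 and 0.34 for VSPA. At 45 DAF alone they were -0.087 for KTI1, -0.14 for GY1, -0.058 for GY5, -0.60 for CG-1, 0.13 for CAB3, 0.35 for VSPA and 0.22 for VSP27. Without both arrays that stood apart they were 0.090 and 0.059 for GY2, 0.080 for HPS, 0.083 for Ep and 0.22 for VSPA. With 1 array left out they ran over -0.020 to 0.21 for KTI3, -0.057 to 0.13 for KTI1, -0.092 to 0.083 and -0.11 to 0.096 for GY2, -0.046 to 0.14 for GY1, -0.31 to 0.014 for KTI-2, -0.071 to 0.14 for GY5, -0.46 to 1.29 for CG-1, -0.69 to 0.044 for HPS, -0.14 to 0.049 for Ep, -1.0003 to 1.01, -1.21 to 0.26 and -1.35 to 0.36 for VSPA and -0.79 to 0.21 for VSP27.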

Other observations

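Transcripts with loci of the low-oxygen response in the study's own list of changing transcripts were lower at mid-maturation in 7 of 8 probe sets, with a median log2 difference of -2.73. This group and the next were chosen after their values were seen, from transcripts the study called on these arrays, and are a description. Of the 1728 probe sets with such a locus 293 were lower and 442 higher, and of all 37593 probe sets 9.39% were lower and 8.13% higher. The probe set with the Arabidopsis locus AT5G15120, a plant cysteine oxidase, an enzyme that uses oxygen to mark proteins for breakdown, had signals of 721, 222, 371 and 89.5 in mid-maturation seeds, against 5055, 4018, 6801 and 5749 in early-filling seeds (difference -4.30, limma, adjusted p = 0.000231). That with the locus AT3G02550, of the transcription factor LBD41, gave 374, 185, 284 and 85.1 at mid-maturation, against 2871, 3006, 2875 and 1885 in early filling. In both, 45 DAF replicate 2 was the lowest array and no early-filling array came near the mid-maturation ones. A probe set with the locus AT5G54960, a pyruvate decarboxylase, which opens the ethanol branch of fermentation, gave 5358, 3436, 3713 and 2280.1 at mid-maturation, against 14458, 13184, 10769.5 and 11842 in early filling. The probe set with the haemoglobin locus AT2G16060 overlapped between periods through 40 DAF replicate 1, at 1104, 255, 415 and 250.1 in mid-maturation seeds and 1141, 1051, 1134 and 1215 in early-filling seeds.

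All 4 probe sets with loci of small heat shock proteins and HSP70 were higher, with a median log2 difference of 1.90. The probe set with the locus AT5G59720, a small heat shock protein, gave 50111, 60771, 61295 and 37155 at mid-maturation, against 6432, 5085, 21858 and 11140.3 in early filling (difference 2.44, limma, adjusted p = 0.0025). The early-filling signals were higher at 30 DAF than at 25 DAF, and the lowest mid-maturation signal was in 45 DAF replicate 2.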
